A study of Mus musculus with 24 samples.

Results

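The genes described here encode 8 enzymes that carry the sulfur of cysteine on to taurine, sulfide, sulfite and sulfate: Cdo1, Csad, Got1, Mpst, Tst, Ethe1, Suox and Sqor. They were found by gene symbol among the 15160 genes of the deposited table, and all 8 were listed and tested in the liver of mice on control (Con) and methionine-restricted (MR) diets. The liver RNA came from 24 male mice, 6 in each of 4 groups, and 22 of them were used. WT mice carried the floxed Nfe2l2 gene (NRF2fl/fl) without a Cre transgene, and NRF2 KO mice (NRF2fl/(alb)) carried the same floxed gene with a Cre recombinase driven by the albumin promoter. Nfe2l2 encodes NRF2, the transcription factor of the antioxidant response, and the albumin promoter acts in hepatocytes. Which other cells of the NRF2 KO liver keep the gene was not tested here. The Con diet held 0.86% methionine and the MR diet 0.17%, and neither diet held cysteine. Diets started at 8 weeks of age and are recorded as lasting 8 weeks, the age is recorded as 5 months, and all mice were fasted for 4 h before death. The mice CON_7604 (WT Con) and MR_7612 (WT MR), which the study set aside as outliers, were left out, so that each WT group held 5 mice and each NRF2 KO group 6.

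Cysteine is oxidized by cysteine dioxygenase to cysteine sulfinate, which is either decarboxylated on the way to taurine or transaminated on the way to sulfite. A separate route transaminates cysteine to mercaptopyruvate, from which a sulfurtransferase releases persulfide and hydrogen sulfide. Sulfide is oxidized in mitochondria through persulfide and sulfite to thiosulfate and sulfate, and the liver is a main site of these steps and of the conjugation of bile acids with taurine.

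Promoter windows are shown for the 4 genes that passed the test for an effect of dietary MR in at least 1 genotype, Csad, Got1, Mpst and Ethe1. Each window is RefSeq sequence on GRCm38.p6, 250 bases before to 50 bases after a transcription start, written 5′ to 3′ on the strand of the gene. The windows used here numbered 10 and covered 6 of the 8 genes. Both strands were searched for TGACNNNGC, the core of the antioxidant response element that NRF2 binds, and for TGATGNAA, a core of the amino acid response element bound by ATF4 and its relatives. Capitals mark a match, and no matches overlapped. The first start of Csad lies at chr15:102205003-102205302 and the second at chr15:102188994-102189293, both on the minus strand. Got1 is shown at chr19:43524556-43524855 on the minus strand, the second start of Mpst at chr15:78406551-78406850 on the plus strand, and the first start of Ethe1 at chr7:24587293-24587592 on the plus strand.
Csad, start 1: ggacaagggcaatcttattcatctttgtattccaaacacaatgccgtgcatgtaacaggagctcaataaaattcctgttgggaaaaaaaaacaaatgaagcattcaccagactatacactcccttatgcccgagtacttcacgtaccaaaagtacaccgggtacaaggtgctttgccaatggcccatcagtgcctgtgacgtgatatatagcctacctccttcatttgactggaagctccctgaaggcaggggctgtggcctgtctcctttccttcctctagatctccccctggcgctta
Csad, start 2: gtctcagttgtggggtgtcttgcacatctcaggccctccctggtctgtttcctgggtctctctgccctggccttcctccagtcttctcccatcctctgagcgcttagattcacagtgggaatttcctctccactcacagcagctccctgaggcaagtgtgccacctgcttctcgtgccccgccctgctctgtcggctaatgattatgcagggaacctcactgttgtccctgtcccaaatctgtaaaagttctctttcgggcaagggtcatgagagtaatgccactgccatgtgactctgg
Got1: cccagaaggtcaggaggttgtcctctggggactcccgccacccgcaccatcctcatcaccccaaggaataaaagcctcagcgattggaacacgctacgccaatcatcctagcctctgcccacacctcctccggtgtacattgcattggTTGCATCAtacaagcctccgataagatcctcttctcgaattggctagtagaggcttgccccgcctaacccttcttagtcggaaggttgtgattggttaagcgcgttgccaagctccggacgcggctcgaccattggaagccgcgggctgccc
Mpst, start 2: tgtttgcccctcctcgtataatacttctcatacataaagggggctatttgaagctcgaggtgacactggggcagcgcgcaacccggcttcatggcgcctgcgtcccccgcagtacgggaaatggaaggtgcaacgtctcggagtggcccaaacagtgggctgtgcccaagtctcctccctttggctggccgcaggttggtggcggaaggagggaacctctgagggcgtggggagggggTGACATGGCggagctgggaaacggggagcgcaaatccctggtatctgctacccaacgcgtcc
Ethe1, start 1: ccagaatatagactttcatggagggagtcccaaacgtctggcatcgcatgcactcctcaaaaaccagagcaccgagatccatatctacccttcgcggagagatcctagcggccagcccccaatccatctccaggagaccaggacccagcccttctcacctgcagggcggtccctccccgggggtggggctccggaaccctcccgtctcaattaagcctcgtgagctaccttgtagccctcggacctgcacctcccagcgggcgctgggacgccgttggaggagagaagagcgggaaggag

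Of the 10 windows 3 held a match. Got1 had the amino acid response core on the reverse strand, 102 bases before the start, and Sqor had it on the reverse strand as well, 143 bases before the start. The second of the 3 starts of Mpst had the antioxidant response core on the gene's own strand, 12 bases before the start. Neither window of Csad held either set of letters. Among 32817 promoter windows of the same length, 12.4% held the antioxidant response core and 3.97% the amino acid response core. The matches are given only as a description of these letters.

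Libraries held 6197291 to 22068338 counted reads, and the 8 genes had from 187 reads (Tst) to 54597 reads (Cdo1) in a mouse. Levels are given as CPM, the reads of a gene scaled to the size of its library, after TMM normalization, mean ± SD over mice. They are comparable between mice for the same gene and are not read as amounts to compare between genes. A QuantSeq library reads the 3′ end of each transcript, and how evenly it does so for different genes was not tested. The 3′ reads of Nfe2l2 do not check the deletion: they were higher in NRF2 KO (228 to 339 CPM on Con and 202 to 249 CPM on MR) than in WT MR (94.0 to 107 CPM) and in 4 of 5 WT Con mice (106 to 125 CPM). The WT Con library labelled CON_7607 had 324 CPM of Nfe2l2, inside the NRF2 KO range, and results that move with it are also given without it. Tests are edgeR's quasi-likelihood test over 13336 genes with Benjamini-Hochberg adjustment, and a gene is called at an adjusted p under 0.05. Liver tissue was sequenced whole, so fewer cells of a type and less RNA per cell cannot be told apart.

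In the fit of all 4 groups Csad was called higher and Mpst and Ethe1 lower on MR in WT mice. In NRF2 KO mice Got1 and Mpst were called lower on MR. Each of these calls was lost in some of the fits that left out 1 mouse, as given below for each gene. In WT 3 of the 8 genes were called, against 13.8% of all genes tested, 1 of them higher (6.91% of all genes) and 2 lower (6.91%). In NRF2 KO 2 genes were called, both lower, against 12.6% of all genes, 6.23% called higher and 6.34% called lower. For the genes called in WT, two-sided exact permutation tests on log2 CPM gave unadjusted p of 0.0079 (Csad), 0.016 (Mpst) and 0.048 (Ethe1). For those called in NRF2 KO the same test gave 0.026 (Got1) and 0.052 (Mpst). The median log2 fold change of the 8 genes was -0.23 in WT and -0.16 in NRF2 KO, against -0.01 and -0.00 over all genes. No gene was called for NRF2 KO against WT on either diet, where 2.07% (Con, 0.802% higher and 1.27% lower) and 1.93% (MR, 0.555% higher and 1.38% lower) of all genes were called, and none for the interaction of genotype and diet, where 0.045% were. DESeq2, which called 3.35%, 3.54% and 0.236% of all genes, also called none of the 8 in these 3 comparisons, and 1 of them on Con (Ethe1) and 0 in the other 2 had an unadjusted edgeR p under 0.05.

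**Figure D1:**
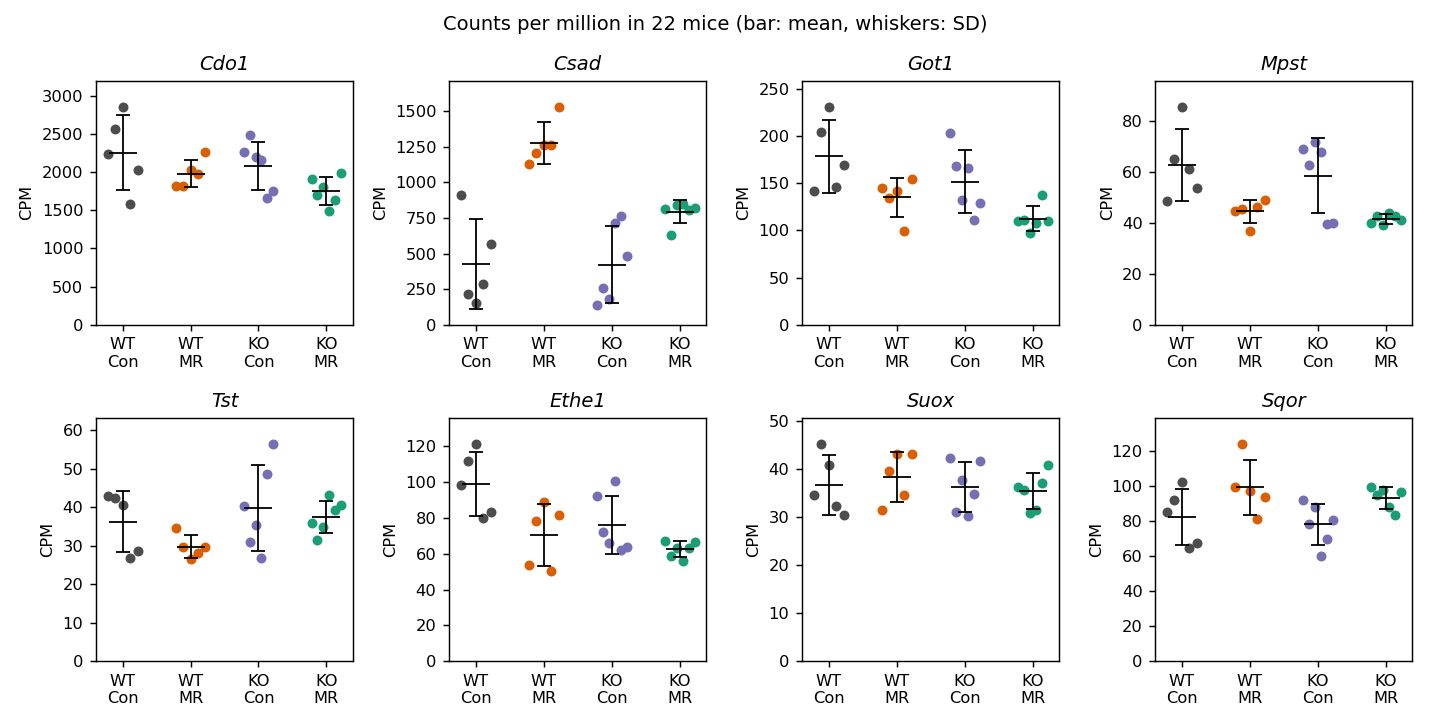
CPM of the 8 genes in each of the 22 mice, by group. Points are mice, bars are group means and whiskers are SD, and each panel has its own linear axis from 0. All 5 WT MR mice lie above all WT Con mice for Csad (1132 to 1529 against 151 to 911 CPM), while the 6 NRF2 KO MR mice (631 to 850 CPM) lie below all WT MR mice and below the highest WT Con mouse.

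Cdo1 (ENSMUSG00000033022) encodes cysteine dioxygenase, the entry step, whose protein is known to be stabilized when cysteine is plentiful. Its level was 2253 ± 490 CPM in WT Con and 1980 ± 181 CPM in WT MR (n = 5 each), and 2082 ± 316 CPM in NRF2 KO Con and 1753 ± 183 CPM in NRF2 KO MR (n = 6 each). The mice on MR had lower means in both genotypes, but the ranges overlapped. The log2 fold change for MR was -0.19 ± 0.13 (SE) in WT mice (adjusted p = 0.38) and -0.25 ± 0.12 in NRF2 KO mice (adjusted p = 0.18), with 95% intervals of -0.46 to 0.08 and -0.50 to -0.00, so neither passed the adjusted test. The means ranked WT Con, NRF2 KO Con, WT MR and NRF2 KO MR from high to low, and neighbours in that order lay within an SD of each other except WT MR and NRF2 KO MR, whose log2 difference of -0.18 ± 0.13 did not pass (adjusted p = 0.59).

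Csad (ENSMUSG00000023044, chr15:102176999-102204724, minus strand, with the last exon 15 at chr15:102176999-102177786) encodes cysteine sulfinic acid decarboxylase, which forms hypotaurine, the precursor of taurine. In WT Con it was measured at 911, 218, 151, 286 and 570 CPM in the mice CON_7602, CON_7603, CON_7605, CON_7607 and CON_7608. In WT MR it was 1132, 1204, 1260, 1262 and 1529 CPM in the mice MR_7609, MR_7611, MR_7613, MR_7615 and MR_7616, the order used below. The WT groups did not overlap: the lowest MR mouse was above the highest Con mouse. Over all genes tested, 5.32% had WT MR wholly above WT Con. The mean level rose 2.99-fold, from 427 ± 314 to 1277 ± 150 CPM (n = 5 each), with a log2 fold change of 1.58 ± 0.47 (SE), a 95% interval of 0.60 to 2.56 and an adjusted p of 0.031. The call was lost when the WT mouse CON_7603, CON_7605, CON_7607 or MR_7616 was left out, with values of 1.36 to 1.51 and adjusted p of 0.060 to 0.076. Without the library CON_7607 the value was 1.47 (adjusted p = 0.070), and the remaining 4 WT Con mice had 463 ± 351 CPM. The call was also lost when only the WT mice were fitted (1.58, adjusted p = 0.063), in a fit that called 9.81% of all genes.

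In NRF2 KO mice Csad ran from 140 to 766 CPM on Con with a median of 369 CPM, and from 631 to 850 CPM on MR with a median of 818 CPM (n = 6 each). The NRF2 KO groups overlapped, since the mice CON_7621 (712 CPM) and CON_7622 (766 CPM) lay above the lowest MR mouse, MR_7627 (631 CPM). The mean was 422 ± 273 CPM on Con and 794 ± 81.6 CPM on MR, a log2 fold change of 0.91 ± 0.42 (SE) with a 95% interval of 0.03 to 1.80 and an adjusted p of 0.17. This value is 1.88-fold and did not pass, but it passed with limma on the authors' normalized values (1.20, adjusted p = 0.042) and with all 24 mice under quality weights (1.41, adjusted p = 0.0041).

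On the MR diet every NRF2 KO mouse had less Csad than every WT mouse, with 850 CPM as the highest NRF2 KO value and 1132 CPM as the lowest WT value. Over all genes tested, 2.91% had NRF2 KO wholly below WT on this diet. The fold between these groups was 1.61, a log2 value of -0.69 ± 0.44 (SE) with a 95% interval of -1.60 to 0.23 and an adjusted p of 0.54 in the fit of all 4 groups. The two-sided exact permutation test on log2 CPM gave an unadjusted p of 0.0022, the smallest that 6 against 5 mice allow. When only the WT MR and NRF2 KO MR mice were fitted, the value was -0.68 ± 0.089 with an adjusted p of 0.00018, in a fit that called 4.7% of all genes. The fit of all 4 groups shares 1 estimate of the spread, which for Csad includes the wide Con groups. On the Con diet the genotype means were 427 CPM in WT and 422 CPM in NRF2 KO, with a log2 value of -0.02 ± 0.44 and a 95% interval of -0.94 to 0.90. The difference between the MR effects in the 2 genotypes was -0.67 ± 0.62 on the log2 scale (95% interval -1.97 to 0.63, adjusted p = 0.86), so a weaker response in NRF2 KO was not shown and the interval is wide.

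The spread of Csad between mice was itself different on the 2 diets. The highest Con mouse had 6.04 times the level of the lowest in WT and 5.48 times in NRF2 KO, while on MR the ratio was 1.35 in both genotypes. The SD of log2 CPM was 1.05 in WT Con and 1.04 in NRF2 KO Con, larger than that of 99.1% and 99.5% of 11997 genes with a mean of at least 1 CPM. On MR the SD was 0.16 in both genotypes, larger than that of 42.4% and 47.3% of the same genes. Without the library CON_7607 the SD in WT Con was 1.20. No test of these spreads was made. A score of circadian clock genes, the mean log2 CPM of Dbp, Tef, Nr1d1, Nr1d2, Per3 and Ciart minus that of Arntl, Npas2, Clock and Nfil3, moved with diet and genotype: it ran from 1.48 to 3.72 in WT Con, from 3.30 to 4.74 in WT MR, from 4.63 to 5.17 in NRF2 KO Con and from 4.91 to 5.44 in NRF2 KO MR. Its part in the levels and the spread of Csad was not tested. With this score as a covariate the MR effect on Csad in WT was 2.12 (adjusted p = 0.078), in a fit that called 6.73% of all genes.

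**Figure D2:**
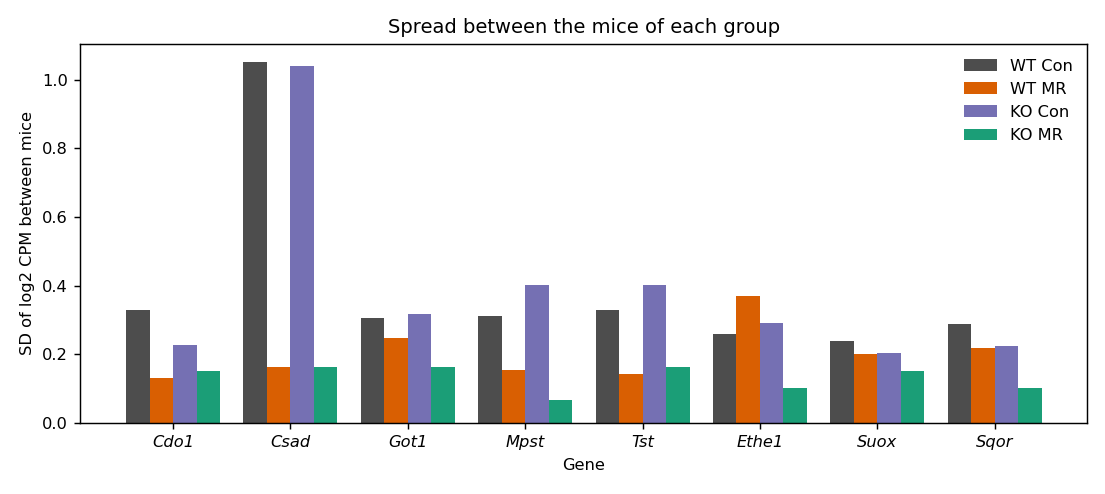
SD of log2 CPM between the mice of each group for the 8 genes, drawn as bars from 0. Csad stands at 1.05 and 1.04 in the Con groups and at 0.16 in both MR groups, and Ethe1 in WT is the bar pair in which the MR group is the wider.

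The narrower spread on MR was shared by the other genes. In WT 7 of the 8 genes had a lower SD of log2 CPM on MR than on Con, and in NRF2 KO all 8 had, against 58.6% and 66.9% of the 11997 genes. The median SD over those genes was 0.210 on Con and 0.183 on MR in WT, and 0.217 on Con and 0.168 on MR in NRF2 KO. Mpst in NRF2 KO had an SD of 0.40 on Con and 0.066 on MR. Ethe1 was the exception in WT, with 0.26 on Con and 0.37 on MR.

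Got1 (ENSMUSG00000025190, chr19:43499752-43524605, minus strand) encodes cytosolic aspartate aminotransferase, which acts on cysteine sulfinate and cysteine besides aspartate. It was 142, 205, 231, 146 and 169 CPM in the WT Con mice, and 145, 134, 142, 99.6 and 154 CPM in the WT MR mice. In NRF2 KO it ran from 111 to 203 CPM on Con (median 149) and from 97.4 to 137 CPM on MR (median 110). The highest values were in Con mice of both genotypes, and the diet groups overlapped in both. In NRF2 KO Got1 fell on MR from 152 ± 33.7 to 112 ± 13.2 CPM (n = 6 each), a log2 fold change of -0.44 ± 0.14 (SE) with an adjusted p of 0.042. In WT the means were 178 ± 38.3 and 135 ± 21.04 CPM (n = 5 each), and the value of -0.40 ± 0.15 did not pass (adjusted p = 0.081). The MR effects of the genotypes differed by -0.03 ± 0.21 (95% interval -0.46 to 0.39). The NRF2 KO call was lost in 10 of 22 fits that left out 1 mouse (WT MR_7611 and MR_7613, NRF2 KO CON_7617, CON_7618, CON_7621, MR_7625, MR_7627, MR_7628, MR_7629 and MR_7632), with values of -0.44 to -0.33 and adjusted p of 0.050 to 0.13. In WT the call was gained without the mouse CON_7602 (-0.48, adjusted p = 0.046).

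Mpst (ENSMUSG00000071711, chr15:78406416-78414013, plus strand) encodes mercaptopyruvate sulfurtransferase, which takes the sulfur of mercaptopyruvate to persulfide and hydrogen sulfide. In WT Con it was 48.4, 64.9, 85.4, 61.0 and 53.7 CPM, and in WT MR 44.7, 45.3, 36.9, 46.1 and 49.0 CPM. Only the lowest Con mouse, at 48.4 CPM, lay below the highest MR mouse. In NRF2 KO it ran from 39.7 to 71.8 CPM on Con (median 65.3) and from 39.0 to 43.9 CPM on MR (median 41.9). The NRF2 KO mice CON_7622 and CON_7623, at 39.7 and 39.8 CPM, lay within the MR range and the other 4 above it. Mpst fell in both genotypes, with a log2 fold change of -0.50 ± 0.16 (SE) in WT (adjusted p = 0.036) and of -0.49 ± 0.14 in NRF2 KO (adjusted p = 0.025). In WT the level fell by 29.2% and in NRF2 KO it fell by 29.0%, and the difference between the log2 values was 0.00 ± 0.21 (95% interval -0.43 to 0.44).

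The Mpst calls depended on single mice. In WT the call was lost without the mouse CON_7603, CON_7605, CON_7607, MR_7609, MR_7611, MR_7613 or MR_7615, with values of -0.51 to -0.36 and adjusted p of 0.060 to 0.12. In NRF2 KO it was lost without the mouse CON_7617, CON_7618, CON_7620, CON_7621 or MR_7628, with values of -0.48 to -0.43 and adjusted p of 0.051 to 0.069. With all 24 mice the values were -0.47 (adjusted p = 0.051) and -0.49 (adjusted p = 0.053).

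Sqor (ENSMUSG00000005803, chr2:122765237-122809569, plus strand) encodes sulfide quinone oxidoreductase, the first enzyme of mitochondrial sulfide oxidation. Its levels were 82.2 ± 16.1 CPM in WT Con and 99.0 ± 15.5 CPM in WT MR (n = 5 each), and 78.1 ± 11.7 CPM in NRF2 KO Con and 93.2 ± 6.32 CPM in NRF2 KO MR (n = 6 each). The MR means were the higher ones in both genotypes with overlapping ranges, 60.1 to 91.8 CPM against 83.1 to 99.5 CPM in NRF2 KO. The log2 values of 0.27 ± 0.12 (SE) in WT and 0.25 ± 0.11 in NRF2 KO did not pass (adjusted p = 0.15 in both). With scaling by library size alone they were 0.38 (adjusted p = 0.012) and 0.41 (adjusted p = 0.0028), a scaling that also moved the median of all genes, by 0.09 in WT and by 0.16 in NRF2 KO.

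Ethe1 (ENSMUSG00000064254, chr7:24587543-24608925, plus strand) encodes persulfide dioxygenase, which turns glutathione persulfide into sulfite. It was 98.4, 111, 121, 79.7 and 83.4 CPM in the WT Con mice and 53.8, 78.1, 88.5, 50.3 and 81.3 CPM in the WT MR mice. MR_7611, MR_7613 and MR_7616 lay close to the lower Con mice, and MR_7609 and MR_7615, at 53.8 and 50.3 CPM, well below them. In WT it fell from 98.8 ± 17.7 to 70.4 ± 17.2 CPM (n = 5 each), with a log2 fold change of -0.49 ± 0.16 (SE), a change of -28.6%, and an adjusted p of 0.041. In NRF2 KO Ethe1 ran from 62.3 to 100.4 CPM on Con (median 69.0) and from 55.7 to 67.1 CPM on MR (median 63.0), and the value of -0.29 ± 0.14 did not pass (adjusted p = 0.20). The MR effects differed by 0.20 ± 0.21 between the genotypes (adjusted p = 0.88). On Con the NRF2 KO mean of 76.1 ± 16.1 CPM was below the WT mean, with a log2 value of -0.38 ± 0.15 that did not pass either (adjusted p = 0.23). The WT call was lost without the mouse CON_7602, CON_7603, CON_7605, MR_7609 or MR_7615, with values of -0.49 to -0.39 and adjusted p of 0.056 to 0.11. It held without the library CON_7607 (-0.55, adjusted p = 0.030). With the clock score as a covariate the value was -0.21 (adjusted p = 0.62), the largest move of a WT value among the alternatives for this gene.

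Tst (ENSMUSG00000044986, chr15:78399556-78405907, minus strand) encodes thiosulfate sulfurtransferase, or rhodanese, and lies beside Mpst on the opposite strand. Its levels were 36.3 ± 7.88 CPM in WT Con and 29.8 ± 3.04 CPM in WT MR (n = 5 each), and 39.8 ± 11.1 CPM in NRF2 KO Con and 37.5 ± 4.18 CPM in NRF2 KO MR (n = 6 each). For MR the log2 values were -0.28 ± 0.17 (SE) in WT mice (adjusted p = 0.29) and -0.08 ± 0.15 in NRF2 KO mice (adjusted p = 0.79). Neither passed, and the NRF2 KO value turned positive (0.07) with scaling by library size alone. On MR Tst was the gene of the 8 with a higher mean in NRF2 KO than in WT, 31.6 to 43.1 CPM against 26.6 to 34.7 CPM. That log2 value was 0.33 ± 0.16 with an adjusted p of 0.36 in the fit of all 4 groups, and 0.33 ± 0.088 with an adjusted p of 0.038 when only the 2 MR groups were fitted. The two-sided exact permutation test gave an unadjusted p of 0.011.

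Suox (ENSMUSG00000049858, chr10:128669894-128674073, minus strand) encodes sulfite oxidase, the molybdenum enzyme that makes sulfate. It had the most even levels of the 8 genes between groups, 36.6 ± 6.22, 38.3 ± 5.20, 36.2 ± 5.12 and 35.3 ± 3.72 CPM in the WT Con, WT MR, KO Con and KO MR mice. The log2 value for MR was 0.07 ± 0.12 (SE) in WT, with a 95% interval of -0.18 to 0.31, and -0.04 ± 0.11 in NRF2 KO, with an interval of -0.26 to 0.18. Both intervals lie above the fall of 0.44 called for Got1 in NRF2 KO.

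**Figure D3:**
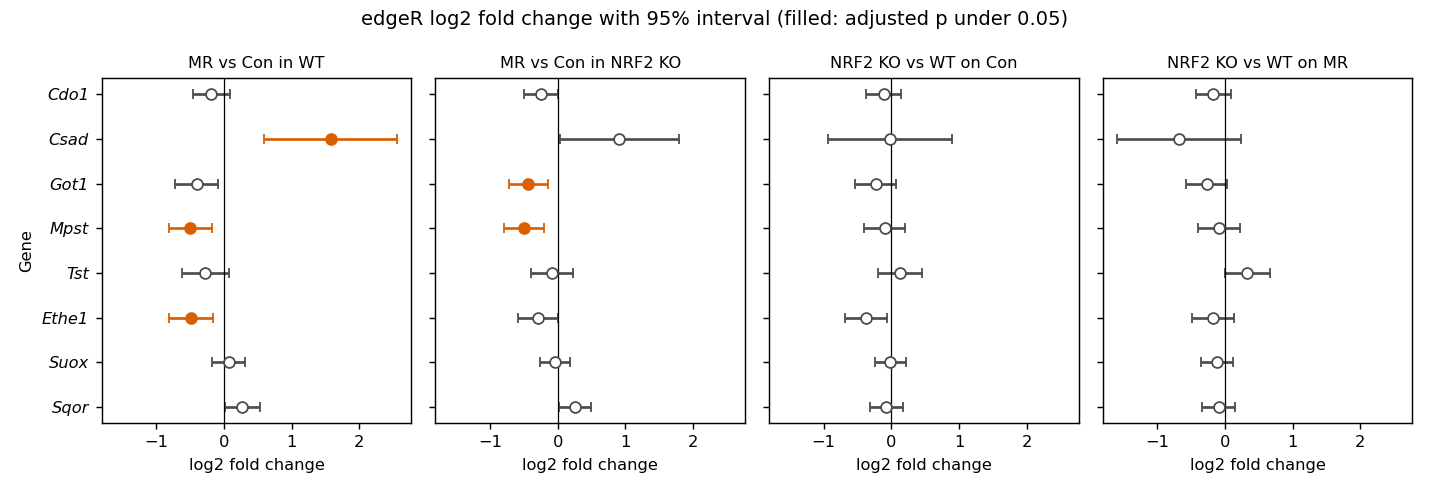
Log2 fold changes of the 8 genes with 95% intervals in 4 comparisons, from edgeR's fit of 22 mice. Filled points have an adjusted p under 0.05: Csad, Mpst and Ethe1 for MR in WT, Got1 and Mpst for MR in NRF2 KO, and none for genotype on either diet.

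In both genotype comparisons most of the log2 values were negative, and none was called. The genes were measured in the same mice and some moved together, so their signs are not separate results. The share of all genes with a negative value was not worked out. On Con 7 of the 8 log2 values were negative (NRF2 KO below WT) and on MR also 7, with medians of -0.09 and -0.15 against -0.00 and 0.00 over all genes. Tst was the positive value on both diets, 0.13 on Con and 0.33 on MR. On Con the values of Cdo1 (-0.11), Csad (-0.02), Mpst (-0.10), Suox (-0.01) and Sqor (-0.07) were within 1 SE of 0, and those of Got1 (-0.23 ± 0.15) and Ethe1 (-0.38 ± 0.15) were not. Without the library CON_7607 the values on Con were -0.22 for Cdo1, -0.13 for Csad, -0.15 for Sqor, -0.06 for Suox and 0.04 for Tst, and none was called. The direction on Con turned for Cdo1, Csad, Ethe1, Suox and Sqor with the clock score as a covariate.

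Because cysteine sulfinate can go to hypotaurine by Csad or to sulfite by way of Got1, the read numbers of these genes were set against each other within each mouse. These ratios are a description of reads at 3′ ends and not of molecules or of flux. Csad had 5.30 to 40.7% of the reads of Cdo1 in WT Con, 62.2 to 67.6% in WT MR, 6.20 to 46.2% in NRF2 KO Con and 37.2 to 56.9% in NRF2 KO MR. On the log2 scale the ratio of Csad to Cdo1 was -0.63 ± 0.05 in WT MR and -1.14 ± 0.21 in NRF2 KO MR, and these groups did not overlap (-0.69 to -0.56 against -1.42 to -0.81). For the ratio of Csad to Got1 the same groups overlapped, with 2.97 to 3.66 in WT MR and 2.51 to 3.11 in NRF2 KO MR. The ratio to Cdo1 in WT Con was -2.68 ± 1.21 (-2.73 ± 1.39 without the library CON_7607) and in NRF2 KO Con -2.58 ± 1.20. The ratio of Csad to Got1 was 0.98 ± 1.31 in WT Con, 3.25 ± 0.26 in WT MR, 1.21 ± 1.25 in NRF2 KO Con and 2.82 ± 0.24 in NRF2 KO MR. In WT every MR mouse was above every Con mouse for both ratios, as for Csad alone, so this is not a separate result. In NRF2 KO the Con mice reached into the MR range for both ratios.

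**Figure D4:**
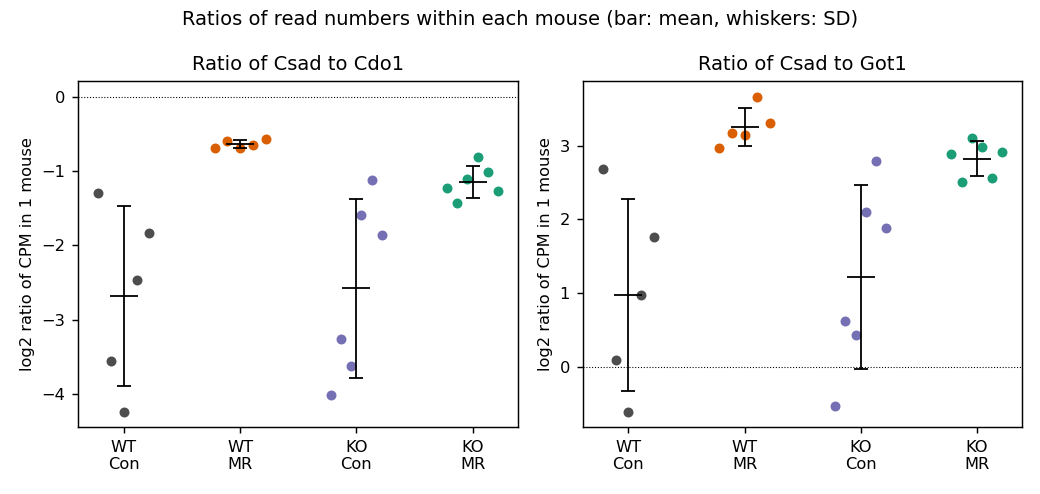
Log2 ratio of the CPM of Csad to that of Cdo1 (left) and of Got1 (right) within each mouse, by group. Points are mice, bars are means and whiskers are SD. The WT MR mice lie in a narrow band from -0.69 to -0.56 in the left panel, and the Con mice of both genotypes spread over more than 2 log2 units in each panel.

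Across the 22 mice, which share the diet and genotype groups, some of the genes moved together. The correlation of log2 CPM was 0.82 for Got1 and Ethe1, 0.78 for Got1 and Mpst and 0.72 for Cdo1 and Got1, and within groups, after each group's mean was taken off, 0.68, 0.62 and 0.57. Csad went the other way from Mpst, with -0.79 across mice and -0.70 within groups. Among the NRF2 KO Con mice, CON_7622 and CON_7623 had the lowest Mpst and 766 and 479 CPM of Csad, while CON_7621 had both high Mpst (67.7 CPM) and high Csad (712 CPM). Tst had correlations between -0.24 and 0.30 with the other 7 genes across mice, and within groups 0.46 with Suox, 0.45 with Sqor and -0.37 with Mpst.

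Each gene was also set against 11989 other genes with a mean of at least 1 CPM to find the one most like it over the 22 mice. For Csad this was Rpl38, a protein of the large ribosomal subunit (Pearson r = 0.91, Spearman rho = 0.89, r within groups = 0.77). Rpl38 itself rose on MR by 0.42 on the log2 scale in WT (adjusted p = 0.0019) and by 0.25 in NRF2 KO (adjusted p = 0.035). For Cdo1 it was Nipsnap1 (r = 0.90), for Got1 Gm5096 (r = 0.92), for Mpst Mpdu1 (r = 0.93) and for Ethe1 Coq8a, a kinase-like protein of coenzyme Q synthesis (r = 0.90). For Tst it was Srebf1, the gene of the lipogenic factor SREBP1 (r = 0.83), for Sqor Gls2, the liver glutaminase (r = 0.80), and for Suox Cfhr2 (r = 0.78). These are the highest of many correlations and share the groups and libraries, and they are given without a test.

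Around the 8 genes, 41 genes of taurine use, sulfur transfer, sulfate use and the molybdenum cofactor were listed, and 39 were tested. For MR in WT 6 of the 39 (15.4%) were called (4 higher, 2 lower), near the 13.8% of all genes, and in NRF2 KO 8 (20.5%; 5 higher, 3 lower) against 12.6%, with medians of -0.01 and -0.03 on the log2 scale. For NRF2 KO against WT 3 (7.69%) were called on Con, all lower, against 2.07% of all genes, and 4 (10.3%) on MR (1 higher, 3 lower) against 1.93%. Without the library CON_7607, 6 and 11 were called for MR in WT and NRF2 KO, in fits that called 11.1% and 13.2% of all genes. For genotype 3 were called on Con and 7 on MR. The share of all genes was not worked out there, so these counts do not show a change particular to these genes. Newly called for genotype on MR were Fmo1 (-0.34, adjusted p = 0.022), Selenbp1 (-0.50, adjusted p = 0.012) and Slc25a10 (-0.37, adjusted p = 0.027). The interaction of genotype and diet was called for 0 of the 39, by edgeR and by DESeq2, so no MR effect below was shown to differ between the genotypes. An unadjusted edgeR p under 0.05 for the interaction was found for 4 of the 39, and for 1008 of all 13336 genes tested.

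For MR 1 of the 8 genes tested for taurine synthesis and use (12.5%) was called in each genotype. This was near the share of all genes, 13.8% in WT and 12.6% in NRF2 KO. The gene called was Fmo1, next to Csad on the way to taurine, a flavin monooxygenase that oxidizes hypotaurine to taurine. It rose on MR by 0.78 ± 0.11 (SE) on the log2 scale in WT (adjusted p = 5.3e-05) and by 0.57 ± 0.099 in NRF2 KO (adjusted p = 0.00060), from 50.9 ± 8.58 to 87.4 ± 9.66 CPM and from 46.7 ± 4.75 to 69.2 ± 6.34 CPM. Its mice did not overlap between diets in either genotype, where 5.32% (WT) and 2.62% (NRF2 KO) of all genes had MR wholly above Con. Ado, which oxidizes cysteamine to hypotaurine, had values of -0.02 and -0.08, and Slc6a6, the taurine transporter, 0.27 and 0.32, none of which passed.

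In the group of 13 tested genes of sulfide formation and sulfur transfer, 3 (23.1%) were called in each genotype, against 13.8% of all genes in WT and 12.6% in NRF2 KO. Cth, the cystathionine gamma-lyase that makes cysteine and can release sulfide, rose by 0.91 ± 0.17 (SE) in WT and by 0.92 ± 0.15 in NRF2 KO (adjusted p = 0.0010 and 0.00050). Selenbp2 fell in both genotypes, with log2 values of -3.22 (adjusted p = 0.012) and -3.20 (adjusted p = 0.0043), but its Con levels ran from 6.46 to 74.6 CPM in WT and from 11.4 to 108 CPM in NRF2 KO, and its reads may be shared with its close relative Selenbp1. Kyat1, a transaminase that also acts on cysteine conjugates, rose in WT by 0.35 ± 0.11 (adjusted p = 0.028; 0.31 and 0.067 without the library CON_7607), and Cbs, which makes cystathionine, fell in NRF2 KO by 0.26 ± 0.083 (adjusted p = 0.040). Got2, the mitochondrial partner of Got1, had -0.14 and -0.24 and passed in neither.

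Of the 8 genes for sulfate use, which take up the product of Suox, 1 (12.5%) was called in WT, near the 13.8% of all genes, and 3 (37.5%) in NRF2 KO, against 12.6%. Papss2, a synthase of the sulfate donor PAPS, rose on MR in NRF2 KO by 0.54 ± 0.087 (SE) (adjusted p = 0.00033) and had 0.07 ± 0.095 in WT, and its NRF2 KO level on MR was above that of WT by 0.39 ± 0.092 (adjusted p = 0.020). Its relative Papss1 fell in WT by 0.45 ± 0.12 (adjusted p = 0.017). In NRF2 KO Impad1 rose by 0.19 ± 0.059 (adjusted p = 0.040) and Slc25a10, a mitochondrial carrier of dicarboxylates, sulfate and thiosulfate, fell by 0.35 ± 0.097 (adjusted p = 0.018).

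The molybdenum list held the related genes that differed by genotype on both diets. Aox1, an aldehyde oxidase, was lower in NRF2 KO, with log2 values of -1.93 ± 0.28 (SE) on Con and -2.20 ± 0.27 on MR (adjusted p = 0.00082 and 5.9e-05), with 8.98 ± 1.49 against 34.0 ± 18.5 CPM on Con. The library CON_7607 had the lowest WT Con level, 9.46 CPM, inside the NRF2 KO Con range, and without it the WT Con level was 40.2 ± 14.3 CPM (n = 4) and the value on Con -2.17 (adjusted p = 1.9e-08). Its neighbour in the family Aox3 had -1.23 and -1.21 (adjusted p = 0.013 and 0.012). Mocos, which adds the sulfur that aldehyde oxidases and xanthine dehydrogenase need, had -0.46 ± 0.095 and -0.42 ± 0.095 (adjusted p = 0.0071 and 0.013). Suox itself, which uses the cofactor without that sulfur, had -0.01 and -0.12. Mocs2, which takes part in making the cofactor, rose on MR in NRF2 KO by 0.28 ± 0.091 (adjusted p = 0.046). Aox1 rose on MR in WT by 1.10 ± 0.28 (adjusted p = 0.013). The rises of Aox1 on MR without the library CON_7607 were 0.86 in WT and 0.83 in NRF2 KO, and both were called. Their adjusted p were 0.0023 and 0.0015. The NRF2 KO rise was not called when that library was kept.

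**Figure D5:**
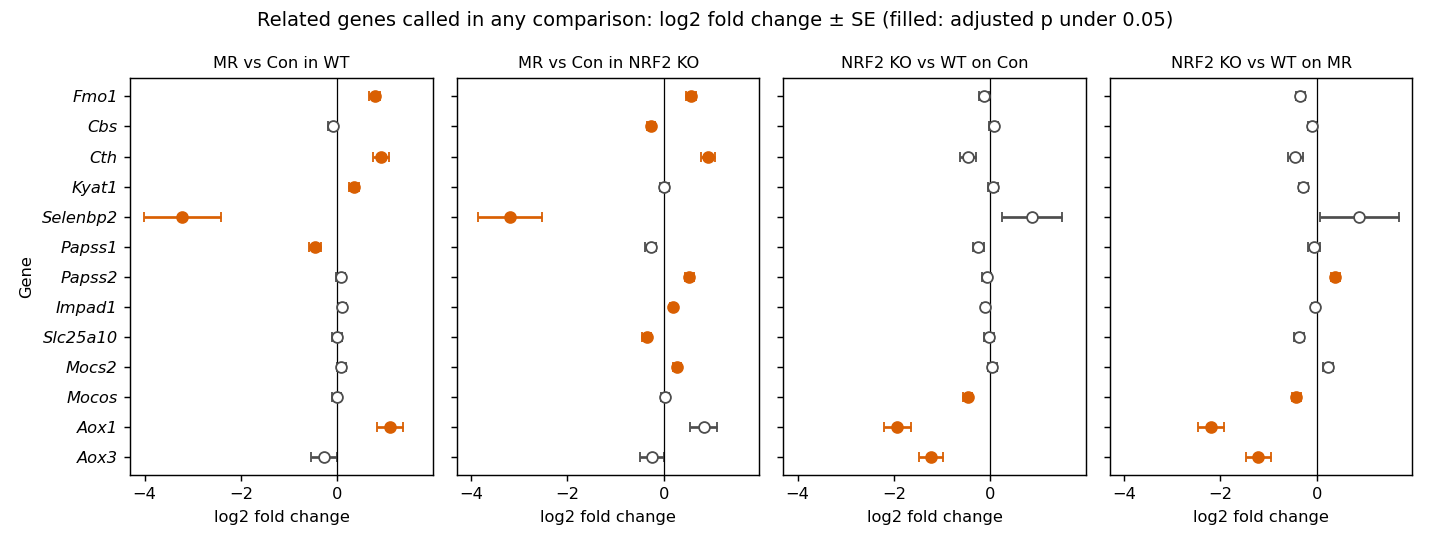
Log2 fold changes ± SE of the related genes called in at least 1 comparison, in the 4 comparisons of diet and genotype. Filled points have an adjusted p under 0.05. Cth and Fmo1 are filled and positive for MR in both genotypes, and Aox1, Aox3 and Mocos are filled and negative for NRF2 KO against WT on both diets.

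Markers of the tissue were read beside these results. All 7 hepatocyte markers were tested, and their summed level was 84028 to 114634 CPM in WT Con, 73552 to 90676 CPM in WT MR, 108910 to 128459 CPM in NRF2 KO Con and 91649 to 113871 CPM in NRF2 KO MR. Lower on MR were 1 of the 7 in WT and 2 in NRF2 KO. Of all genes tested, 6.91% were called lower on MR in WT and 6.34% in NRF2 KO, where 6.23% were called higher. Also lower on MR in WT were 4 of 5 bile duct markers (sum 49.0 to 72.6 CPM on Con and 20.9 to 28.3 CPM on MR), 4 of 6 stellate cell markers (386 to 648 and 339 to 425 CPM) and 2 of 6 Kupffer cell markers (257 to 357 and 208 to 237 CPM). In NRF2 KO 3 of 6 stellate cell markers and 3 of 5 pericentral hepatocyte markers were lower on MR, the latter with sums of 3276 to 6030 CPM on Con and 2841 to 4318 CPM on MR. Their part in the changes of Csad, Got1, Mpst and Ethe1 was not tested. In NRF2 KO 1 of 5 bile duct markers (Sox9) was also lower on MR and 1 of 5 endothelial markers (Kdr) higher. In WT 1 of 5 pericentral markers (Oat) was lower on MR, and 1 of 4 red blood cell markers (Alas2) was lower on MR in both genotypes. For genotype, 1 of 5 bile duct markers (Spp1) was lower in NRF2 KO on Con, against 1.27% of all genes. On MR 1 of 7 hepatocyte markers (Apoa1) was higher in NRF2 KO (0.50, adjusted p = 0.0025), against 0.555% of all genes. No periportal hepatocyte, B cell, T and NK cell or neutrophil marker was called in these 4 comparisons.

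The mice left out had 402 CPM (WT CON_7604) and 971 CPM (WT MR_7612) of Csad, the first within the range of its group and the second below it. Their values of Cdo1, 1431 and 1352 CPM, and of Mpst, 40.3 and 34.2 CPM, were below all other mice of their groups. With all 24 mice 1 of the 8 genes was called for MR in WT (Csad) and 1 in NRF2 KO (Got1), in fits that called 13.5% and 9.13% of all genes. Without the library CON_7607, 1 of the 8 was called in WT (Ethe1) and 2 in NRF2 KO, in fits that called 11.1% and 13.2%.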

How the data were processed

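Liver RNA of 24 mice was sequenced as QuantSeq 3′ libraries, 1 per mouse. The authors counted reads per gene with the kit maker's pipeline and deposited raw counts. A second deposited table holds a normalized signal, those counts over DESeq2's size factor of each library. The submitters' processing notes name GRCm38 (mm10), R 3.4.3 and DESeq2 1.18.1, and the aligner is not given in the sources used here. Positions are from GENCODE M21 on GRCm38.

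Raw counts were tested with edgeR 4.0.16 (R 4.3.3): filterByExpr kept 13336 of 15160 genes, TMM gave the scaling, and robust quasi-likelihood F-tests were made in a model with a mean per group of 22 mice. Benjamini-Hochberg adjustment ran over all genes tested. Log2 CPM used a prior count of 2. Exact permutation tests were two-sided. DESeq2 1.42.0, limma 3.58.1 and other scalings, filters and sets of mice were alternatives, and the model was tested on simulated data. The labels give no batch. The 8 genes, the lists, the motifs and the tests were chosen with earlier results of these data known. Named were the 8 genes, the related genes that were called (at most 4 of a list in a comparison), the gene most like each of the 8, Nfe2l2 and the clock genes. Ado, Slc6a6, Got2 and the markers named singly were chosen after their values were seen. Plots used matplotlib 3.10.9 (Python 3.11.15).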

Additional observations from a re-analysis of the deposited data

Results flagged for a closer look

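Of the 32 sets of mice checked (8 genes in 4 groups), 1 held a mouse far from the others of its group by Dixon's test, which marks about 1 in 20 sets by chance. Csad in the NRF2 KO mouse MR_7627 was measured at 631 CPM, with 807 CPM in the nearest of the other mice of its group, and on the log2 CPM scale used for the test this gap took a share of 0.827 of the range of the group.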

How the results depend on the processing

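No paired analysis was possible because the mouse numbers are not shared between the groups. Of the fold changes of the 8 genes under the alternatives other than leaving out 1 mouse, 394 kept their direction and side of the threshold, 14 lost a call, 7 gained one and 17 turned direction. The causes were not tested. The number of the 8 genes called for MR in WT was 1 with only the groups compared, 1 with all 24 mice and 0 with the clock score as a covariate. These fits called 9.81%, 13.5% and 6.73% of all genes. For MR in NRF2 KO the number was 1 with scaling by library size alone, 1 with all 24 mice (9.13% of all genes called) and 1 with the clock score. For NRF2 KO against WT on MR it was 2 (Csad and Tst) with only the groups compared, in a fit that called 4.7% of all genes. Among related genes 13 were called for MR in NRF2 KO with library size alone and 15 with quality weights. For genotype on Con 0 were called with the clock score, and for genotype on MR 10 with only the groups compared and 2 with the clock score. The clock score did not overlap between the genotypes on either diet, so score and genotype cannot be told apart in these fits. Where no share of all genes stands beside a count, here or in the next paragraph, the count does not show a change particular to these genes.

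Leaving out 1 mouse at a time gave 0 to 3 of the 8 genes called for MR in WT (0 without CON_7603 or CON_7605, 1 without CON_7607, MR_7609 or MR_7615) and 0 to 2 in NRF2 KO (0 without CON_7617, CON_7618, CON_7621 or MR_7628, 1 without WT MR_7611 or MR_7613 or NRF2 KO CON_7620, MR_7625, MR_7627, MR_7629 or MR_7632). The other 3 comparisons stayed at 0. Related genes called ran from 5 (without NRF2 KO CON_7618, CON_7620 or MR_7628) to 11 for MR in NRF2 KO and from 3 to 7 (without WT CON_7607) for genotype on MR.

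The log2 values that turned direction are given here, and none of them was called. With the clock score NRF2 KO against WT on Con gave 0.028 for Cdo1, 0.70 for Csad, 0.014 for Ethe1, 0.21 for Suox and 0.023 for Sqor, and the interaction gave -0.028 for Ethe1. With quality weights genotype on Con gave 0.011 for Cdo1, 0.041 for Mpst and 0.031 for Suox, MR in NRF2 KO gave 0.0098 for Tst, and the interaction gave -0.13 for Mpst. With all 24 mice genotype on Con gave 0.055 for Suox and the interaction -0.020 for Mpst. With library size alone MR in NRF2 KO gave 0.075 for Tst and 0.12 for Suox, and the interaction gave 0.025 for Got1 and 0.027 for Sqor. With 1 mouse left out the interaction ran from -0.15 to 0.038 for Cdo1, -0.14 to 0.078 for Got1, -0.13 to 0.091 for Mpst and -0.10 to 0.072 for Sqor. Genotype on Con ran from -0.27 to 0.45 for Csad, -0.19 to 0.033 for Mpst, -0.078 to 0.064 for Suox and -0.15 to 0.012 for Sqor. MR in NRF2 KO ran from -0.17 to 0.047 for Tst and -0.086 to 0.019 for Suox.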
